A study of Danio rerio with 11 samples.

Results

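The zebrafish genome holds large arrays of chemosensory receptor genes, and 3 families of them were described here in whole embryos of aldh3a1 knockouts and of wild type. They are the odorant receptors (symbols beginning with or), the trace amine-associated receptors (taar) and the V2R-like receptors (olfc). Members were chosen by symbol alone, with no filter on their level. In all, 261 symbols fitted the pattern and 256 of them were among the 30243 genes listed in the files, of which 142 were or, 64 taar and 50 olfc genes.

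The libraries were 6 aldh3a1_KO samples, labelled as knockouts (aldh3a1-/-), and 5 WT samples, all taken 48 hours after fertilisation. The product of aldh3a1 is an aldehyde dehydrogenase, an enzyme that oxidises reactive aldehydes. RNA of both groups came from the TG(fli1:EGFP) line, in which the fli1 promoter drives a green reporter in endothelial cells. Both groups were raised in E3 medium, and which samples also had PTU, an inhibitor of pigment formation, is not given in the labels. The labels say nothing of separate clutches, pooled embryos, the mutant allele or the number of mutant lines, and the p-values therefore reflect variation among these 11 samples alone, which may be technical.

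In fish, odorant receptors and most trace amine receptors are G protein-coupled receptors of ciliated olfactory neurons, which also carry the olfactory marker protein and signal through adenylate cyclase and a cyclic nucleotide-gated channel. The olfc receptors belong to microvillous olfactory neurons, which signal through a Trpc2 channel and detect amino acids among other cues. A mature olfactory neuron typically expresses 1 receptor gene out of the whole repertoire, so in RNA of a whole embryo each receptor gene is read from very few cells.

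All 3 families were higher in aldh3a1_KO embryos in summed level, and the olfc genes were also detected in larger number. The authors' TPM, a level per gene scaled for transcript length and library depth, summed over the 256 members averaged 100.6 ± 35.9 in aldh3a1_KO and 20.99 ± 3.97 in WT embryos (SD, n = 6 and 5). The most abundant members in aldh3a1_KO were olfcd3, or90d1, or30bt1 and or70a2, and the 3 leading genes of a library made up 45.7% ± 2.75 of the sum in aldh3a1_KO and 30.8% ± 4.14 in WT (SD, n = 6 and 5). The expression of single members was tested with edgeR's quasi-likelihood F test on rounded estimated counts, 2-sided, with Benjamini-Hochberg adjustment over 22182 genes and a threshold of 0.05. Of the 23 members with enough counts to enter that test, 22 were higher in aldh3a1_KO, 0 were lower and olfcg7 did not pass. Over all genes tested, 26.0% were called higher and 29.3% lower in aldh3a1_KO. Entry into the test needed a minimum count in at least 5 libraries. Of the 23 members, 10 reached it in no WT library, so they entered through aldh3a1_KO libraries alone and had to differ. The 22 calls are therefore a description, not a share to compare with all genes. Without that minimum, 68 of 189 members (36.0%) were called higher and 7 (3.70%) lower. Among all genes in that fit, 24.3% were higher and 21.6% lower. Only 40 of the 256 members had at least 1 count in every WT library. The floor thus limits how many could be called lower, and the lower shares are descriptions.

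The libraries differed in depth between the genotypes. The aldh3a1_KO libraries held 9.22 to 17.2 M estimated counts (M, mega) and the WT libraries 18.1 to 19.97 M. Transcripts of the 13 mitochondrially encoded genes took 5.01 to 25.9% of the counts in aldh3a1_KO and 4.63 to 5.62% in WT libraries, and aldh3a1_KO 1, 5 and 6 had the highest shares. The aldh3a1 transcript itself was at 0.834, 0.642, 1.30, 1.07, 0.854 and 0.342 TPM in aldh3a1_KO and at 1.34, 1.35, 1.18, 1.42 and 1.96 TPM in WT libraries. These ranges overlapped, and the log2 fold change was -0.62 ± 0.27 (SE, edgeR adjusted p = 0.0621), so the transcript was still read in every aldh3a1_KO library. In bulk RNA a larger number of olfactory neurons and more receptor RNA per neuron cannot be told apart.

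Summed over its 142 genes, the or family was at 57.3, 23.1, 65.0, 39.3, 81.8 and 47.3 TPM in aldh3a1_KO 1 to 6. In WT 1 to 5 it was at 12.6, 12.2, 13.7, 16.3 and 10.1 TPM. The groups did not overlap: aldh3a1_KO 2 was the lowest aldh3a1_KO library and still lay above WT 4, the highest WT library. The group means were 52.3 ± 20.5 TPM in aldh3a1_KO and 12.98 ± 2.25 TPM in WT (SD, n = 6 and 5), a ratio of 4.03.

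The taar sum was 18.9, 4.997, 14.4, 12.0, 16.6 and 12.7 TPM in aldh3a1_KO 1 to 6. It was 2.18, 2.05, 2.59, 3.15 and 1.73 TPM in WT 1 to 5. Here too aldh3a1_KO 2 was lowest among its group, WT 4 was highest among the controls, and the groups did not overlap. The means were 13.3 ± 4.77 TPM in aldh3a1_KO and 2.34 ± 0.547 TPM in WT (SD, n = 6 and 5), a ratio of 5.67.

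The olfc sum was 42.7, 18.8, 45.7, 28.6, 47.1 and 27.1 TPM in aldh3a1_KO 1 to 6. It was 5.79, 4.76, 5.10, 7.90 and 4.78 TPM in WT 1 to 5. The same libraries stood at the ends, aldh3a1_KO 2 and WT 4, again without overlap. The means were 35.02 ± 11.7 TPM in aldh3a1_KO and 5.67 ± 1.32 TPM in WT (SD, n = 6 and 5), a ratio of 6.18, and without its most abundant gene olfcd3 the ratio was 3.75. No test was made on these sums, which are descriptions. The members were taken by symbol, with earlier results of these data known.

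**Figure D1:**
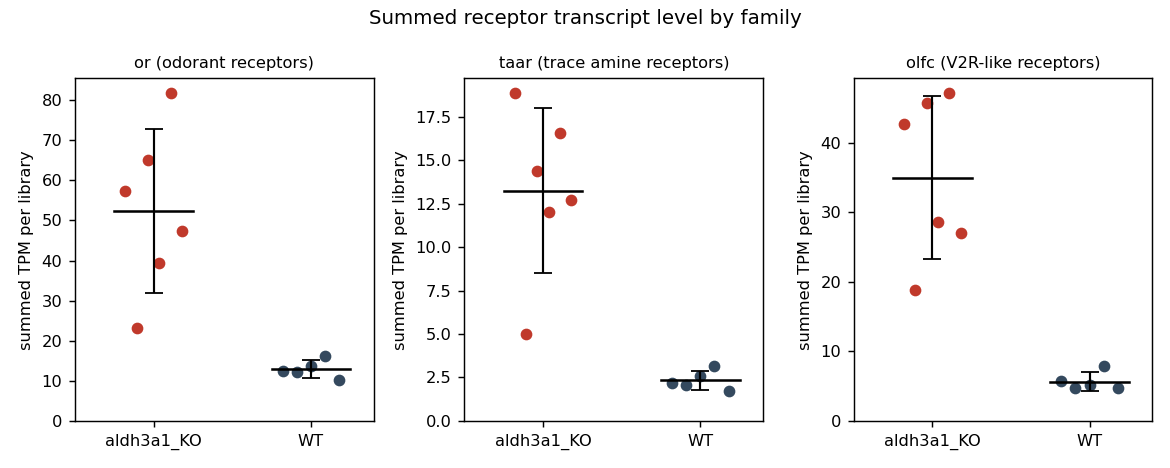
Each point is the TPM summed over all genes of a family in 1 library, with aldh3a1_KO left of WT and panels for the or, taar and olfc families; wide bars are group means and error bars 1 SD (n = 6 and 5). In every panel all aldh3a1_KO libraries lie above all WT libraries, with means of 52.3 and 12.98 TPM for the or genes.

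The libraries with the smallest mitochondrial shares among the knockouts, aldh3a1_KO 4 and 2, had the lowest or and taar sums of that group. The olfc sums did not follow this order, since aldh3a1_KO 6 (27.1 TPM), with a mitochondrial share of 20.9%, lay below aldh3a1_KO 4 (28.6 TPM). With aldh3a1_KO 1, 5 and 6 left out, the ratio of aldh3a1_KO to WT was 3.27 for the or, 4.47 for the taar and 5.48 for the olfc family. Rescaling TPM without the 13 mitochondrially encoded genes gave ratios of 5.04, 7.12 and 7.68 for the or, taar and olfc families. Many receptor genes are close copies of each other, and the authors' estimates divide reads that match several copies. Of the 185 members with at least 1 count in some library, 124 had whole-number counts in every library, within 0.0001 of a count, and these held 29.0% of the receptor counts. Summed over whole-count members alone, a choice added after the data were seen, the ratio was 2.15 for the or, 10.8 for the taar and 3.21 for the olfc family. The direction was thus the same, while the size depended on the members left out, each with a count that was not whole in at least 1 library. Among them were olfcd3, or90d1, or30bt1 and taar20c1, which are also among the most abundant of their families. Divided reads and high level therefore cannot be told apart here.

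The level was concentrated in few genes. The 3 most abundant or genes of a library made up 62.2% ± 2.95 of the or sum in aldh3a1_KO and 40.1% ± 5.38 in WT libraries (SD, n = 6 and 5). In the olfc family the most abundant gene of a library alone took 62.2% ± 4.53 in aldh3a1_KO and 38.95% ± 5.45 in WT (SD, n = 6 and 5), with no overlap between 56.4 to 67.7% and 33.4 to 47.5%. In the taar family the 3 leading genes of a library took 64.0% ± 4.24 in aldh3a1_KO and 63.96% ± 5.74 in WT (SD, n = 6 and 5), but not with the same ranks. The second by mean level in aldh3a1_KO was taar16g, at 2.54 TPM in aldh3a1_KO and 0.0763 TPM in WT embryos, where taar11 (0.244 TPM) and taar19l (0.240 TPM) lay above it.

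Above 1 TPM, 8, 5, 7, 6, 7 and 6 or genes were found in aldh3a1_KO 1 to 6, against 2, 3, 2, 3 and 2 in WT 1 to 5. For the taar genes the numbers were 5, 2, 3, 3, 3 and 2 in aldh3a1_KO, against 0, 0, 1, 1 and 0 in WT libraries. For the olfc genes they were 8, 2, 7, 4, 5 and 3 in aldh3a1_KO, against 2, 2, 2, 2 and 1 in WT libraries. The or and taar counts did not overlap between genotypes, whereas the olfc count of aldh3a1_KO 2 equalled that of 4 WT libraries. In all, 26 members passed 1 TPM somewhere, all 26 of them in at least 1 aldh3a1_KO library and 7 in at least 1 WT library. Above 1 TPM in every library of a genotype were 9 members in aldh3a1_KO and 3 in WT, and the 3 in WT were or70a2, or90d1 and olfcd3. Genes above 1 TPM were not counted over all listed genes, so these numbers are descriptions and not shown to be particular to the receptors.

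Detection gave a different picture for the or genes. At least 1 estimated count was found for 46, 42, 54, 43, 46 and 32 or genes in aldh3a1_KO 1 to 6 and for 48, 45, 55, 53 and 42 in WT 1 to 5. The ranges overlapped widely, with means of 43.8 ± 7.17 in aldh3a1_KO and 48.6 ± 5.41 in WT (SD, n = 6 and 5). Once every library was thinned to the 9.22 M counts of the smallest, the means were 40.2 ± 9.30 in aldh3a1_KO and 35.6 ± 5.86 in WT, so the order turned round with depth and remained within the spread. No difference in the number of or genes was therefore detectable.

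For the taar genes, 22, 16, 17, 20, 19 and 18 were detected in aldh3a1_KO 1 to 6 and 14, 12, 11, 19 and 10 in WT 1 to 5, with WT 4 inside the aldh3a1_KO range. At equal depth the means were 17.7 ± 3.72 in aldh3a1_KO and 9.4 ± 3.51 in WT (SD, n = 6 and 5). The olfc genes separated at either depth. They numbered 37, 30, 34, 33, 36 and 27 in aldh3a1_KO, against 17, 21, 19, 23 and 24 in WT libraries. At equal depth the means were 31.8 ± 4.49 in aldh3a1_KO and 15.8 ± 2.05 in WT. Over all listed genes at equal depth, 84.2% ± 1.81 were detected in aldh3a1_KO and 83.6% ± 0.793 in WT libraries.

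**Figure D2:**
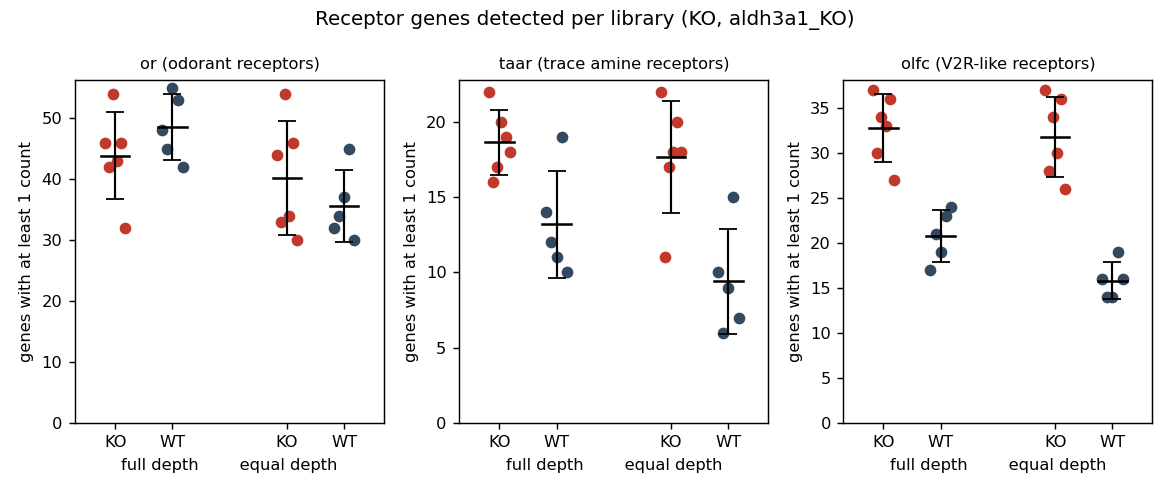
Points are the number of receptor genes with at least 1 estimated count in a library, at full depth (left pair) and after thinning all libraries to 9.22 M counts (right pair), with aldh3a1_KO (KO) left of WT; bars are means and 1 SD (n = 6 and 5). The or ranges overlap at both depths and the olfc ranges at neither, at 27 to 37 and 17 to 24 genes at full depth.

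Across the 256 members, 71 had no library with a count of at least 1, and 56 of these were listed at 0 throughout. Of the detected ones, 116 were found in both genotypes, 45 in aldh3a1_KO libraries alone and 24 in WT libraries alone. The genotypes differed in depth and in number of libraries, and the same split was not counted over all listed genes. These numbers are therefore no result about the receptors. The olfc genes were nearly all read somewhere, 48 of 50, against 97 of 142 or and 40 of 64 taar genes. The or80 genes were mostly silent at this depth, with 3 of 12 detected. Among the taar13 genes, which include the zebrafish cadaverine receptor taar13c, 1 of 5 was detected, and taar13c was not. The only taar15 gene and the taar1 gene were likewise below 1 count in every library.

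Among the odorant receptors, or90d1 was the most abundant, at 5.42, 14.4 and 19.2 TPM (lowest, median and highest) in aldh3a1_KO libraries. In WT 1 to 5 it was at 1.60, 1.27, 1.55, 1.94 and 1.61 TPM. All aldh3a1_KO libraries lay above all WT libraries, and the log2 fold change was 3.32 ± 0.35 (SE, edgeR adjusted p = 1.61e-05).

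The odorant receptor gene or70a2 was the highest or gene in WT embryos and had whole counts in every library. It was at 4.86, 9.38 and 13.7 TPM (lowest, median and highest) in aldh3a1_KO and at 3.12, 1.83, 2.50, 3.35 and 2.29 TPM in WT libraries. The groups did not overlap, with a log2 fold change of 2.08 ± 0.31 (SE, edgeR adjusted p = 0.000101).

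The odorant receptor gene or30bt1 was rarer in WT embryos. It was at 3.93, 9.70 and 20.8 TPM (lowest, median and highest) in aldh3a1_KO, with the top value in aldh3a1_KO 5, and at 0.674, 0.582, 0.466, 1.07 and 0.469 TPM in WT libraries. Again no libraries overlapped, and the log2 fold change was 4.21 ± 0.48 (SE, edgeR adjusted p = 2.15e-05). Thus or70a2 led or30bt1 in each WT library, whereas in aldh3a1_KO 5 and 6 or30bt1 was the higher.

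Next in level came or62c3, at 1.30, 2.98 and 6.62 TPM (lowest, median and highest) in aldh3a1_KO and at 0.448, 0.671, 0.298, 0.682 and 0.589 TPM in WT libraries. The gene or42b1 was at 1.22, 3.07 and 7.37 TPM in aldh3a1_KO and at 0.219, 0.539, 0.220, 0.483 and 0.309 TPM in WT libraries. Both were apart between the genotypes and were called higher, with log2 fold changes of 2.94 ± 0.41 for or62c3 and 3.57 ± 0.51 for or42b1 (SE, edgeR adjusted p = 7.26e-05 and 7.53e-05). The minimum count was reached in 3 WT libraries for or62c3 and in 2 for or42b1. Both genes thus needed aldh3a1_KO libraries to enter the test, and their calls are descriptions. In contrast, or64d1 overlapped, at 0.757, 2.76 and 4.18 TPM (lowest, median and highest) in aldh3a1_KO, where aldh3a1_KO 2 and 6 were low, and at 0.944, 1.06, 0.924, 0.798 and 0.779 TPM in WT libraries. It passed the test with a log2 fold change of 1.68 ± 0.43 (SE, edgeR adjusted p = 0.00462).

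The gene or93a8 was nearly absent from WT embryos. It had 0.410, 0.633 and 1.25 TPM (lowest, median and highest) in aldh3a1_KO and 0.0297, 0.0318, 0, 0 and 0 TPM in WT libraries. Over each group it had 95 estimated counts in aldh3a1_KO and 2 in WT, a ratio per library total of 59.1 with a 95% interval of 15.9 to 495 that covers counting error only. It was called higher (edgeR adjusted p = 4.40e-05), with no overlap between the genotypes. The gene or92a1 was at 0.265, 0.481 and 0.580 TPM in aldh3a1_KO and at 0.106, 0.0650, 0.0853, 0.110 and 0.0306 TPM in WT libraries, with a log2 fold change of 2.71 ± 0.42 (SE, edgeR adjusted p = 0.000141). Both or93a8 and or92a1 entered the test through aldh3a1_KO libraries alone, so their calls are descriptions.

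The leading trace amine receptor gene was taar20c1, at 1.77, 5.17 and 6.22 TPM (lowest, median and highest) in aldh3a1_KO and at 0.866, 0.817, 1.01, 1.33 and 0.625 TPM in WT libraries. The groups were apart, with a log2 fold change of 2.58 ± 0.36 (SE, edgeR adjusted p = 7.18e-05). Second was taar16g, which had whole counts throughout. It was at 1.25, 2.55 and 3.66 TPM in aldh3a1_KO and at 0.0526, 0, 0.0591, 0.217 and 0.0529 TPM in WT libraries. No WT library came near the lowest aldh3a1_KO library, and the log2 fold change was 5.22 ± 0.59 (SE, edgeR adjusted p = 2.16e-05). Since taar16g entered the test through aldh3a1_KO libraries alone, its call is a description.

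A second taar20 gene, taar20u, was at 0.353, 0.784 and 1.01 TPM (lowest, median and highest) in aldh3a1_KO and at 0.0885, 0, 0, 0 and 0.0336 TPM in WT libraries, a log2 fold change of 4.76 ± 0.69 (SE, edgeR adjusted p = 9.04e-05). The gene taar10d was at 0.0605, 0.884 and 2.37 TPM in aldh3a1_KO and at 0, 0, 0.119, 0.162 and 0 TPM in WT libraries. Its groups overlapped through aldh3a1_KO 2, and its log2 fold change was 4.27 ± 0.94 (SE, edgeR adjusted p = 0.00166). Both taar20u and taar10d entered the test through aldh3a1_KO libraries alone, so their calls are descriptions. Neither taar11, at means of 0.492 TPM in aldh3a1_KO and 0.244 TPM in WT, nor taar19l had enough counts to be tested, and both overlapped between the genotypes.

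Among the V2R-like receptors olfcd3 exceeded every other receptor gene, at 12.5, 21.2 and 30.3 TPM (lowest, median and highest) in aldh3a1_KO libraries. In WT 1 to 5 it was at 2.04, 1.23, 1.45, 3.75 and 1.90 TPM, with WT 4 highest. The groups were far apart, and the log2 fold change was 3.61 ± 0.37 (SE, edgeR adjusted p = 1.46e-05).

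The second olfc gene, olfcg3, had whole counts in every library. It was at 1.76, 3.95 and 5.34 TPM (lowest, median and highest) in aldh3a1_KO and at 1.72, 1.84, 1.70, 1.61 and 0.875 TPM in WT libraries. Only aldh3a1_KO 2 fell within the WT range, and the log2 fold change was 1.50 ± 0.31 (SE, edgeR adjusted p = 0.00107). The level of olfcd3 was above that of olfcg3 in all 6 aldh3a1_KO libraries and in WT 1, 4 and 5, and olfcg3 was the higher in WT 2 and WT 3.

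Of the olfcq genes, olfcq18 was at 0.543, 1.31 and 2.23 TPM (lowest, median and highest) in aldh3a1_KO and at 0.810, 0.578, 0.750, 0.607 and 0.672 TPM in WT libraries. It overlapped and changed by 1.14 ± 0.33 on the log2 scale (SE, edgeR adjusted p = 0.0102). The gene olfcq6 was apart between genotypes, at 0.625, 1.03 and 1.74 TPM in aldh3a1_KO and at 0.320, 0.163, 0.186, 0.397 and 0.264 TPM in WT libraries, with a log2 fold change of 2.40 ± 0.42 (SE, edgeR adjusted p = 0.000304). Since olfcq6 reached the minimum count in 3 WT libraries, it needed aldh3a1_KO libraries to enter the test, and its call is a description.

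A further set of olfc genes was barely read in WT embryos. The gene olfcd2 was at 0.310, 0.842 and 1.52 TPM (lowest, median and highest) in aldh3a1_KO and at 0.0206, 0, 0, 0.106 and 0.0207 TPM in WT libraries. Its neighbour in level olfcq8 was at 0.351, 0.520 and 1.55 TPM in aldh3a1_KO and at 0.0549, 0.0391, 0.0206, 0.0376 and 0.0370 TPM in WT libraries. Both were apart between genotypes, with log2 fold changes of 5.05 ± 0.76 for olfcd2 and 4.50 ± 0.60 for olfcq8 (SE, edgeR adjusted p = 0.000109 and 5.09e-05). The gene olfcs2 had 95 estimated counts over the aldh3a1_KO libraries and 3 over the WT libraries, a ratio per library total of 39.4 (95% interval 13.1 to 194, edgeR adjusted p = 8.19e-05). The gene olfcg2 had 130 counts over the aldh3a1_KO and 8 over the WT libraries, with a log2 fold change of 4.40 ± 0.74 (SE, edgeR adjusted p = 0.000257). Neither overlapped between the genotypes. As with olfce1p, the genes olfcd2, olfcq8, olfcs2 and olfcg2 entered the test through aldh3a1_KO libraries alone, so their calls are descriptions. The remaining olfc genes tested were olfce1p and olfcq12, both called higher with adjusted p of 0.00100 and 0.0198 (edgeR), and olfcg7, with a log2 fold change of -0.21 ± 0.43 (SE, edgeR adjusted p = 0.699). The call of olfcq12 is a description too, since it reached the minimum count in 1 WT library and needed aldh3a1_KO libraries to enter. The direction of olfcg7 was not stable, being 0.11 without aldh3a1_KO 1, 5 and 6.

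**Figure D3:**
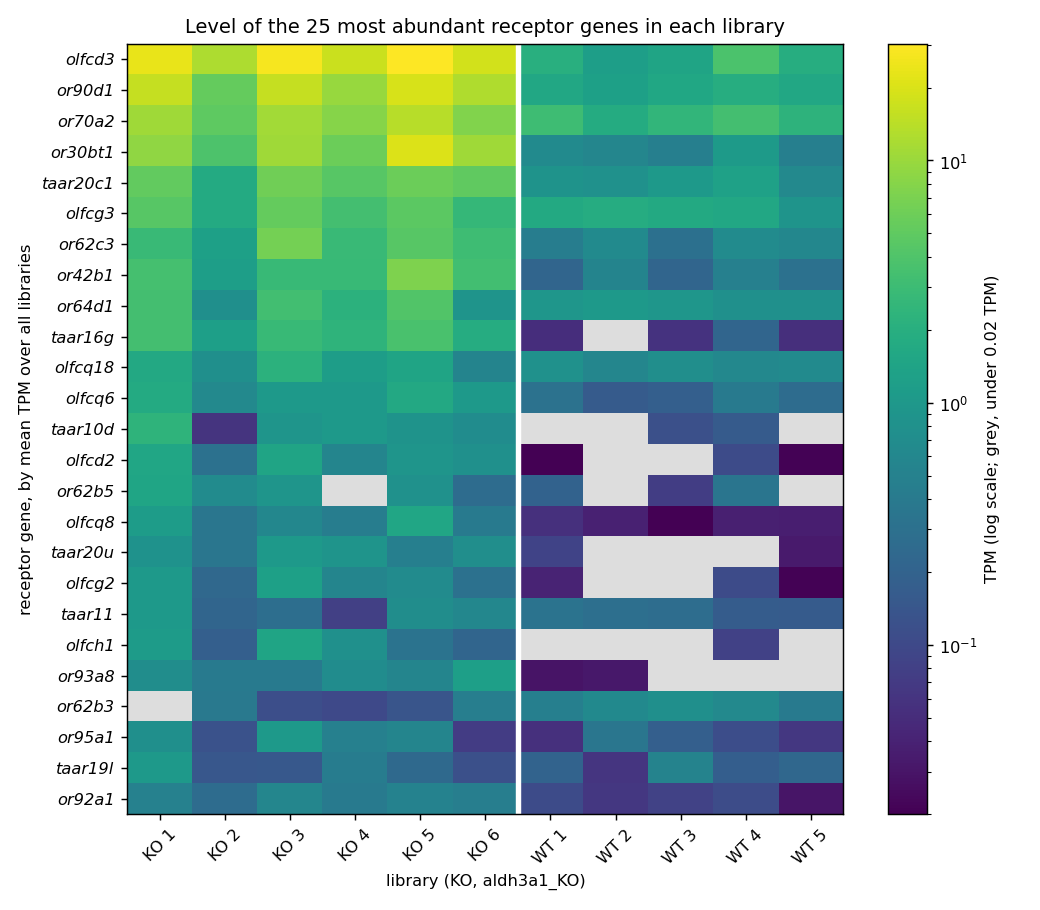
Colour gives the TPM (log scale) of the 25 most abundant receptor genes (rows, by mean over all libraries) in each library (columns), with the 6 aldh3a1_KO libraries left of the white line and the 5 WT libraries right of it; grey marks levels under 0.02 TPM. The top rows, olfcd3, or90d1, or70a2 and or30bt1, are bright in all aldh3a1_KO libraries, with aldh3a1_KO 2 the dimmest, and or62b3 is brighter in most WT libraries.

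The test could reach only part of the repertoire. Genes entered it through a minimum count in at least 5 libraries, and only 8 of the 23 members reached that count in all 5 WT libraries, while 10 reached it in no WT library. A further 5 reached it in 1 to 4 WT libraries and needed aldh3a1_KO libraries to enter. Members that entered through the aldh3a1_KO libraries alone had to differ, so the 22 calls are a description. The 8 that reached the count in every WT library, whatever their level in aldh3a1_KO, were all called higher, with log2 fold changes between 1.14 for olfcq18 and 4.21 for or30bt1. The share called higher was not counted over all genes that reached the count in every WT library. This number is therefore also a description. Without aldh3a1_KO 1, 5 and 6, 20 members were called higher and 1 lower, or92a7. In that fit or92a7 was not read in any remaining aldh3a1_KO library, so it entered through WT libraries alone and had to differ. These calls are descriptions too, not shares to compare with the 24.0% higher and 26.1% lower of all genes in that fit. For members rare in WT embryos the size of the fold change hung on single WT libraries. With WT 4 left out, the fitted log2 fold changes were 6.06 for taar16g, 6.29 for olfcd2, 6.09 for olfcs2, 5.35 for olfcg2 and 5.08 for taar10d. They were 5.97 for taar20u without WT 1 and 5.56 for olfce1p without WT 2, and these 7 members were called higher either way.

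**Figure D4:**
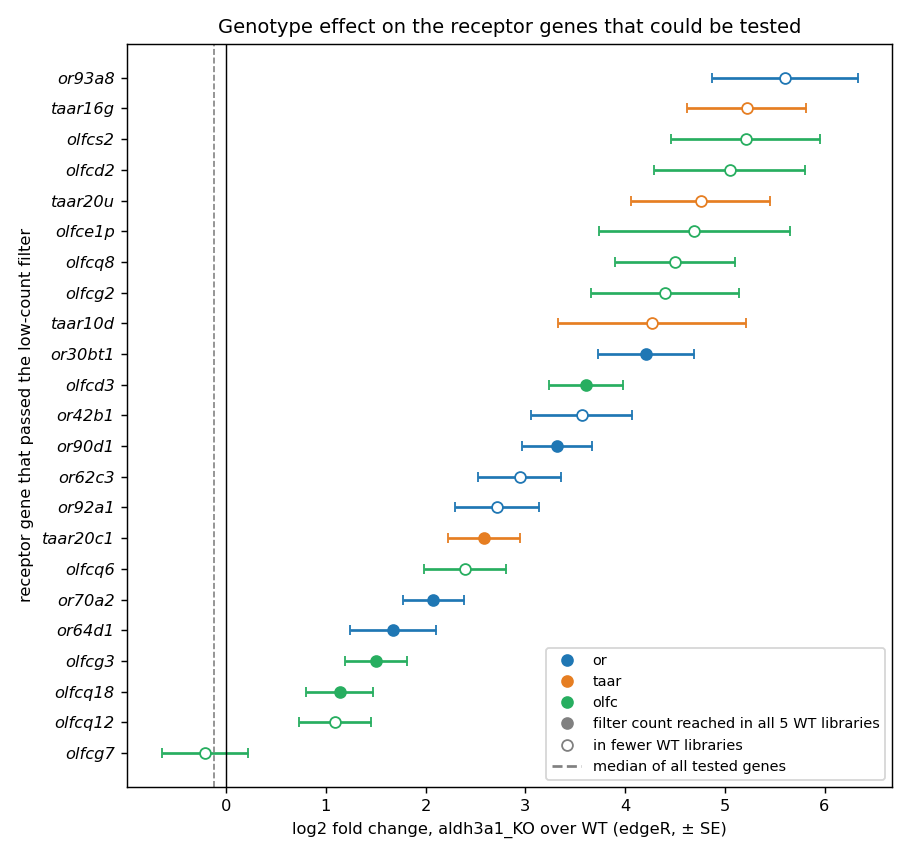
Points are edgeR log2 fold changes of aldh3a1_KO over WT with SE for the 23 receptor genes tested, coloured by family; filled points reached the filter's count in all 5 WT libraries and open points in fewer, and the dashed line is the median of all 22182 genes at -0.12. All points but olfcg7 (-0.21) lie to the right of 0, up to 5.60 for or93a8.

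Without a low-count filter, 189 members could be tested, of which 68 were called higher and 7 lower in aldh3a1_KO. These are 36.0% and 3.70% of those tested, beside 24.3% higher and 21.6% lower among all 29177 genes in the same fit. By family, 29 of 48 olfc genes (60.4%), 15 of 43 taar genes (34.9%) and 24 of 98 or genes (24.5%) were called higher. The or share lay at that of all genes. Some of the higher calls rested on few counts, such as taar19a with 5 and olfcx1 with 7 over the aldh3a1_KO libraries and 0 over the WT libraries. By level, 28 of 256 members had all aldh3a1_KO libraries above all WT libraries, 10.9% beside 11.2% of all listed genes, which is no excess for the members as a whole. By family these were 9 of 142 or genes (6.34%), 6 of 64 taar genes (9.38%) and 13 of 50 olfc genes (26.0%). Of the 256 members, 71 were below 1 count in every library, where the groups could hardly separate, so these shares are descriptions. Wholly below lay 3 members (1.17%), beside 17.8% of all listed genes. Only 40 of the 256 members were detected in every WT library, and a member at 0 in any WT library could not lie wholly below. The floor likewise limits how many members could be called lower without the filter, so both lower shares are descriptions.

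The 7 lower members were all rare, and they are named after their values were seen. The clearest by counts was or92a7, with 0, 0, 0, 0, 3 and 0 estimated counts in aldh3a1_KO 1 to 6 and 12, 17, 9, 10 and 4 in WT 1 to 5. Apart from aldh3a1_KO 5 it was not read in aldh3a1_KO embryos, and the ratio of its counts per library total was 0.0717 (95% interval 0.0143 to 0.221, counting error only). The gene or42c3 had 0 counts in all aldh3a1_KO libraries and 13 over the WT libraries, at least 3.49-fold lower when the aldh3a1_KO group is set to a floor of 3 counts in all. Likewise or42c5 had 6 counts over the aldh3a1_KO and 40 over the WT libraries, with no overlap in TPM. The others were or71aq1, or91a3, or93a1 and olfcj1, with 0 to 3 counts over the aldh3a1_KO and 8 to 20 over the WT libraries. In the opposite direction olfcq16 and olfcq19, also named after their values were seen, were read in all 6 aldh3a1_KO libraries and in no WT library, at least 12.7-fold and 11.7-fold higher against the same floor. Their estimated counts over the aldh3a1_KO libraries, 30.7 for olfcq16 and 28.3 for olfcq19, were not whole. Reads that match several copies were thus divided. Added together, the counts of olfcq16 and olfcq19 are whole, so reads were divided between these genes. Their bounds are therefore not separate results, and whether each gene was read on its own was not tested.

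Receptor genes of a family lie in clusters, and this order was read from the RefSeq table of the assembly GRCz12tu, for names and neighbours only. Joining members with at most 5 other genes between them gave 18 runs, of which 10 held at least 10 members and together 241 of the 256. The largest run held 49 of the 50 olfc genes, and 47 of these were detected, 19 in every aldh3a1_KO library. Its leading gene olfcd3 made up 58.7% of the mean level of the run over all libraries. Over the 10 large runs this share lay between 21.7%, for or62b5 in a run of 18 or93, or62 and or61 genes, and 91.5%. In the run of 11 or90 genes, or90d1 made up 91.5%. In the run of 17 or70 and or6 genes, or70a2 made up 87.4%, and in a run of 28 or71, or42 and or30 genes or30bt1 made up 78.0%. Of 32 genes in the run from taar12j to taar14b, 14 were detected, and taar10d led with 36.2%.

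Genes of the olfactory organ other than receptors moved in both directions. The lists were chosen with earlier results of these data known, and their counts are descriptions beside the 26.0% of all genes called higher and 29.3% lower. Of 13 tested genes of ciliated olfactory neurons, 6 were higher, 3 lower and 4 did not pass, with a median log2 fold change of 0.18 against -0.12 for all genes. Of 7 tested genes of microvillous neurons, 5 were higher, 0 lower and 2 did not pass, with a median of 0.96. Of these 5 calls, 2 (trpc2a and tbx2b) held under every alternative, while gnai2a, gnao1a and plcb2 lost theirs under some, with adjusted p up to 0.299, 0.223 and 0.0749.

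The olfactory marker protein gene ompa, which marks mature ciliated neurons, was at 13.9 to 40.5 TPM in aldh3a1_KO and at 4.43 to 9.78 TPM in WT libraries. It was lowest in aldh3a1_KO 2 and highest in aldh3a1_KO 5, as was the or sum, and its log2 fold change was 2.11 ± 0.33 (SE, edgeR adjusted p = 0.000161). Between these ends the order differed. In aldh3a1_KO 3 and 6, ompa was at 20.2 and 27.4 TPM, whereas the or sum was at 65.0 and 47.3 TPM. The second copy, ompb, averaged 1.25 ± 0.820 TPM in aldh3a1_KO and 1.31 ± 0.563 TPM in WT (SD, n = 6 and 5) and did not pass (edgeR adjusted p = 0.838). Of the 4 tested subunit genes of the cyclic nucleotide-gated channel, 3 were higher: cnga2a by 2.88 ± 0.43, cngb1a by 2.997 ± 0.53 and cnga4 by 1.46 ± 0.46 (log2 fold changes with SE, edgeR adjusted p = 0.000103, 0.000327 and 0.0145). Without aldh3a1_KO 1, 5 and 6 cnga4 lost its call (0.43, adjusted p = 0.347). The fourth, cnga2b, averaged 0.424 TPM in aldh3a1_KO and 0.435 TPM in WT and did not pass (log2 fold change 0.13, edgeR adjusted p = 0.766).

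Other parts of the ciliated cascade went the other way. The G protein alpha subunit gene gnal averaged 1.96 ± 0.887 TPM in aldh3a1_KO and 4.47 ± 0.857 TPM in WT, and its copy gnal2 averaged 1.53 ± 0.532 TPM in aldh3a1_KO and 5.73 ± 0.685 TPM in WT (SD, n = 6 and 5). Both were called lower, with log2 fold changes of -0.98 ± 0.28 and -1.75 ± 0.25 (SE, edgeR adjusted p = 0.00858 and 7.39e-05). The adenylate cyclase copies parted, adcy3a being lower at -1.72 ± 0.30 and adcy3b higher at 0.93 ± 0.21 on the log2 scale (SE, edgeR adjusted p = 0.000336 and 0.00193). These transducers also serve cells outside the nose, so a whole embryo's level is not that of olfactory neurons alone.

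For the microvillous neurons, the channel gene trpc2a averaged 0.503 ± 0.182 TPM in aldh3a1_KO and 0.0706 ± 0.0292 TPM in WT (SD, n = 6 and 5), a log2 fold change of 3.05 ± 0.46 (SE, edgeR adjusted p = 0.000119). The second copy, trpc2b, was too rare to be tested, at means of 0.113 TPM in aldh3a1_KO and 0.120 TPM in WT. The calcium-binding gene s100z, a marker of crypt neurons, and the V1R-like receptor gene ora4 were higher by 1.25 ± 0.23 and 1.27 ± 0.26 on the log2 scale (SE, edgeR adjusted p = 0.000409 and 0.00100). Of that list of crypt cell and V1R-like genes, 3 could be tested, of which 2 were higher, 0 lower and gnai1 did not pass.

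Transcription factors of the olfactory placode, which act earlier, were lower more often than higher, as were all genes tested (29.3% lower and 26.0% higher). Of 33 factors tested, 7 were higher, 15 lower and 11 did not pass. Their median log2 fold change was -0.13, near the -0.12 of all genes. Under every alternative 3 of these 7 and 13 of these 15 calls held. The placode genes dlx3b and dlx4b were lower by log2 fold changes of -2.39 ± 0.28 and -3.14 ± 0.30 (SE, edgeR adjusted p = 2.48e-05 and 1.02e-05). The sine oculis homologs six1b and six4b were also lower, at -1.68 ± 0.25 and -2.17 ± 0.31 (SE, edgeR adjusted p = 9.97e-05 and 8.37e-05). In contrast pax6a was higher by 1.21 ± 0.17 (SE, edgeR adjusted p = 7.15e-05). Most of these factors act in other tissues as well, and their share from the nose was not tested. Of 13 genes of nasal GnRH neurons and olfactory axon guidance, 4 were higher, 6 lower and 3 did not pass, with a median of -0.45, and 2 of these 4 and 5 of these 6 calls held under every alternative. Among them the repellent gene slit1a was lower at -2.76 ± 0.39 and its receptor robo2 higher at 1.67 ± 0.31 (log2 fold changes with SE, edgeR adjusted p = 7.21e-05 and 0.000446).

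Markers of neurons in general were higher in aldh3a1_KO or did not pass, and their summed level overlapped between the genotypes, unlike the receptor sums. Of 10 pan-neuronal genes, 6 were higher, 0 lower and 4 did not pass, with a median log2 fold change of 1.09. Their summed level ranged over 1174 to 2898 TPM in aldh3a1_KO and 988 to 1520 TPM in WT libraries, with means of 2350 and 1223 TPM, and none was at 0 in any group. The RNA-binding gene elavl3 was higher by 2.01 ± 0.21 (log2, SE, edgeR adjusted p = 1.52e-05). The ratio of means was 1.92 for the pan-neuronal sum, beside 4.03, 5.67 and 6.18 for the or, taar and olfc sums. The part of this general neuronal difference, of depth and of the mitochondrial share in the receptor levels was not tested.

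**Figure D5:**
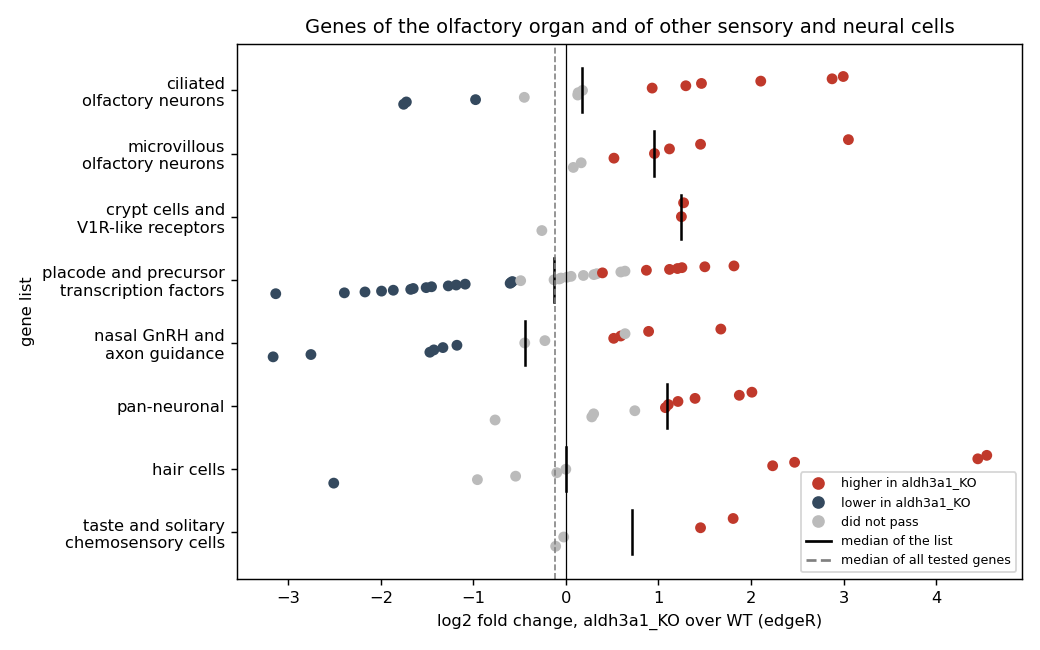
Each point is the edgeR log2 fold change of a tested gene, aldh3a1_KO over WT, for 8 gene lists (rows); colours mark genes called higher or lower in aldh3a1_KO and grey those that did not pass, black bars are list medians and the dashed line is the median of all tested genes at -0.12. Microvillous and pan-neuronal genes lie mostly to the right, with medians of 0.96 and 1.09, while placode transcription factors spread to both sides.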

How the data were processed

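Whole-embryo RNA of 6 aldh3a1_KO and 5 WT samples was sequenced on a BGISEQ-500, per the labels' protocols. Per the submitters' processing notes, reads were trimmed with Trim Galore 0.6.4 and quantified with kallisto, whose version is given there as 0.4.6, with the build danRer11. The authors deposited expected counts per gene (kallisto's estimated counts, not all whole) and TPM per gene. The strand setting is not given in the sources used here. Entrez identifiers were matched to a RefSeq table of the assembly GRCz12tu (25812 of 30243 matched), used for names and gene order alone, and no receptor sequences were used here.

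Estimated counts were rounded to whole numbers and tested in R 4.3.3 with edgeR 4.0.16 (TMM scaling, filterByExpr, robust quasi-likelihood F test, genotype as the only term, Benjamini-Hochberg over all genes tested). SEs were derived from the F statistic. The median log2 fold change of all genes was -0.12 after TMM and -0.26 on log2(TPM + 1), and directions are signs against 0. A member was detected at an estimated count of at least 1. Depth was equalised by seeded thinning of each library. With 0 counts in a group, that group was set to 3 counts in all for a lower bound of the fold, and with 1 to 3 counts the ratio has a 95% exact interval. Both cover counting error alone, and precision follows the library totals of 9.22 to 19.97 M estimated counts (M, mega). The edgeR step was run on simulated counts of genes above a minimum level in WT, few of them changed. Members rare in WT embryos, such as or93a8 and olfcs2, lay below that level, so the simulated run does not cover them. Python 3.11.15 with pandas 2.3.3, numpy 2.4.6 and matplotlib 3.10.9 was used for sums and plots.

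Named genes are aldh3a1, the 6 most abundant members per family, the 15 called members with the smallest adjusted p, members above 1 TPM in every library of a genotype, the defining markers of the lists, and up to 5 genes per list. The other members named were chosen after their values were seen. Members and lists were chosen with earlier results of these data known. Alternatives were the size factors and the Wald test of DESeq2 1.42.0, no filter, 1 CPM in 5 libraries, limma 3.58.1 with trend on log2(TPM + 1) and log2(TPM + 0.1), thinning, the replicate number as a block, leaving out single libraries or aldh3a1_KO 1, 5 and 6, and other thresholds and denominators. The sum over whole-count members was added after the data were seen.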

Additional observations from a re-analysis of the deposited data

Results flagged for a closer look

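In 64 groups of library values of the families and members, a library standing far from the others of its genotype by Dixon's ratio was found 5 times. For independent continuous values chance gives about 1 in 20 groups. That rate does not strictly apply here, since families and their members share values and the numbers above 1 TPM are small and tied. The number of taar genes above 1 TPM was 5 in aldh3a1_KO 1 (ratio 0.667), against 2 or 3 in the other aldh3a1_KO libraries. The number of olfc genes above 1 TPM was 1 in WT 5 (ratio 1), against 2 in the other WT libraries. On log2(CPM + 0.5), taar19l was far above the other aldh3a1_KO libraries in aldh3a1_KO 1 (ratio 0.680), at 1.04 TPM. The olfc gene olfcg3 was low in WT 5 (ratio 0.801), at 0.875 TPM, and olfcd2 was high in WT 4 (ratio 0.767), at 0.106 TPM.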

How the results depend on the processing

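Of 422 values of the 23 tested members under the alternatives, 412 kept their direction and side of the threshold, 5 no longer passed (olfcq18 and olfcq12) and 5 turned round, all of olfcg7, at 0.094 with the replicate block, 0.11 without aldh3a1_KO 1, 5 and 6, and -0.37 to 0.047 when single libraries were left out. A member that did not enter an alternative's fit gave no value there. The rare members taar10d, olfcs2 and olfce1p had 11 values each, against 20 for olfcd3. Members called higher numbered 22, against 68 with no filter, 15 with the filter of 1 CPM in 5 libraries, 15 at equal depth and 19 to 27 with single libraries left out; fewer members enter the test under the stricter filter and at equal depth. Members called lower numbered 0, against 7 with no filter, 1 (or92a7) without aldh3a1_KO 1, 5 and 6, and 0 to 0 with single libraries left out. The call of or92a7 is a description, since it entered that fit through WT libraries alone. The change in aldh3a1 was -0.79 on log2(TPM + 0.1) and -0.43 on log2(TPM + 1), both past the threshold, and -0.72 to -0.38 with single libraries left out. The difference in detected or genes, -4.77, was 0.50 at 5 counts and 4.57 at equal depth, and that in olfc genes, 12.0, was 16.0 at equal depth. The difference in or genes above 1 TPM, 4.10, was 5.53 at 0.5 TPM and 5.83 without mitochondrially encoded genes. For taar genes it was 2.60, against 4.8 at 0.5 TPM, 1.67 at 2 TPM and 3.90 without mitochondrially encoded genes. With single libraries left out, the ratio of summed TPM ran over 3.57 to 4.48 (or), 5.19 to 6.37 (taar) and 5.75 to 6.86 (olfc). The olfc ratio of 6.18 was 3.75 without olfcd3, and over whole-count members the ratios were 2.15 (or), 10.8 (taar) and 3.21 (olfc). Of the list genes, ompb turned to -0.22 and -0.079 and gng13b to -0.22 and -0.17 on log2(TPM + 0.1) and log2(TPM + 1), with ranges of -0.12 to 0.44 and -0.23 to 0.91 over single libraries left out. The causes were not tested.

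Same-numbered libraries deviated together only weakly (r of 0.0109 to 0.154, and 1 of 5 correlated best with its own number). The labels give no pairing beyond this number, and weak correlations cannot exclude one. The numbers are those of the sample titles; the deposited files carry other running numbers, none of which both genotypes share, so they give no pairing. With that number as a block, and aldh3a1_KO 6 left out for want of a partner, 20 members were higher and 0 lower. Without the block, 20 were higher on the same libraries. Over all genes 11125 were called with the block, against 12269 with all 11 libraries and no block. These totals differ in the block and in the libraries used, so the part of the block was not tested. Among the list genes cnga4 missed the threshold with the block (adjusted p = 0.0603). Receptor genes with a few counts per library limit what depth can show: absence of a count is not absence of expression.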

Other observations

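Of 9 tested hair cell genes, 4 were higher in aldh3a1_KO, 1 lower and 4 did not pass, with a median log2 fold change of 0.00. The mechanotransduction channel genes tmc1 and tmc2b were at 4.61 ± 2.11 and 2.61 ± 1.51 TPM in aldh3a1_KO, against 0.256 ± 0.0970 and 0.132 ± 0.0593 TPM in WT (SD, n = 6 and 5), with log2 fold changes of 4.45 ± 0.48 and 4.55 ± 0.56 (SE, edgeR adjusted p = 1.63e-05 and 3.24e-05). The parvalbumin gene pvalb8 was lower, at 3.65 ± 0.783 TPM in aldh3a1_KO against 25.2 ± 3.84 TPM in WT (log2 fold change -2.51, edgeR adjusted p = 1.10e-05). Of 4 tested genes of taste and solitary chemosensory cells, trpm5 and plcb2 were higher and 2 did not pass; plcb2 lost its call in limma on TPM (adjusted p up to 0.0749). The taste receptor genes themselves were too rare to be tested, and tas2r200.1 was listed at 0 in every library.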
